A study of Homo sapiens with 2 samples.

Results

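The genes PIK3CA, PIK3CB, PIK3R1, PIK3R2, AKT1, AKT2, MTOR, RICTOR and RPTOR form the core of the PI3K, AKT and mTOR signalling pathway, and all 9 were found by symbol among the 61806 genes of the deposited table. They were measured in SAS cells, an epithelial cell line established from human tongue squamous carcinoma, as polyadenylated RNA counted per gene. The cells received a COL17A1 siRNA in the knockdown library and a negative control siRNA in the control library; both libraries are labelled wild type in genotype, were lipid-transfected in medium with 10% serum, and were harvested 48 hours later. The design asks which transcripts differ when COL17A1, the collagen of hemidesmosomes that anchors basal epithelial cells, is reduced. There was 1 library per group, 1 cell line and 1 siRNA against COL17A1, so no difference has a replicate check, no p-value is given, and an effect of the loss of COL17A1 and another effect of that siRNA cannot be told apart.

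Growth factor receptors, integrins and their adaptors recruit class I PI3K, a dimer of a catalytic p110 and a regulatory p85 subunit, which phosphorylates a membrane lipid. The lipid draws the kinase AKT to the membrane, where PDPK1 and the complex mTORC2 activate it. The kinase MTOR works in both mTORC1, built on RPTOR and controlling protein synthesis and autophagy, and mTORC2, built on RICTOR. In squamous carcinomas of the head and neck the gene of p110 alpha is among the genes often activated by mutation or gain. The pathway acts largely through phosphorylation, which RNA counts do not measure.

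COL17A1 had 411 counts in the knockdown library and 3116 in the control library, 18.8 and 198 CPM (counts scaled to a common library total), a log2 ratio of -3.39 with a 95% interval of -3.55 to -3.25. The knockdown library held 21601195 counts and the control library 15980152. Each interval is exact and covers counting error only. All 8 squamous epithelial markers had at least 1 CPM, with a summed level of 3487 CPM in the knockdown and 2920 CPM in the control library. Of 6 fibroblast, 5 leukocyte and 3 endothelial markers 1, 1 and 0 reached 1 CPM, with PTPRC, CD3E, COL1A2, COL3A1 and PECAM1 at 0 in both libraries. These lists summed to 1.69, 5.21 and 0.959 CPM in the knockdown library, against 1.08, 3.17 and 0.951 CPM in the control library. In bulk RNA, fewer cells of a kind and less RNA per cell cannot be told apart.

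Of the 9 core genes, PIK3CA and PIK3R1 were lower and PIK3R2 was higher in the knockdown library by at least 1.5-fold with an interval excluding 1. The other 6 did not pass that rule. Among the 13375 genes averaging 1 CPM or more over both libraries, called tested genes, 12.2% were higher and 11.7% lower by the same rule, so 1 higher and 2 lower of 9 is close to the background. At 2-fold, passed upward by 3.04% and downward by 3.59% of these genes, 0 of the 9 were called. The member median was -0.44 on the log2 scale, against 0.03 for all tested genes. Intervals lay wholly below 1 for 6 members and wholly above 1 for 2, and 1 member's held 1. At any size of difference 32.4% of tested genes had an interval below 1 and 33.1% above it.

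**Figure D1:**
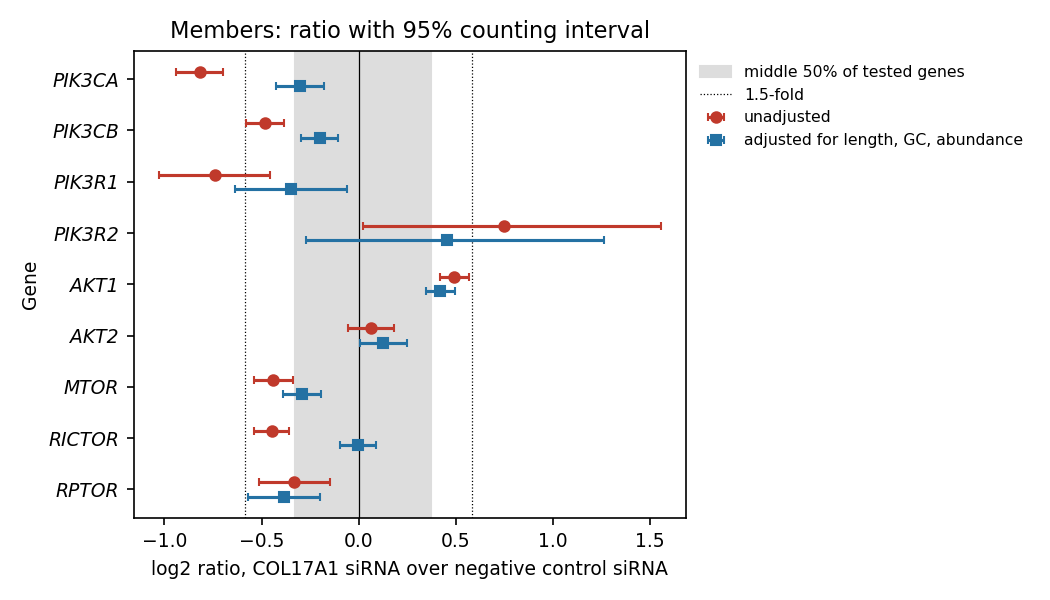
Log2 ratio of each core gene, COL17A1 siRNA over negative control siRNA, with its 95% counting interval, as measured and adjusted for exonic length, transcript GC content and abundance; the grey band spans the middle of the tested genes and dotted lines mark 1.5-fold. PIK3CA at -0.82 and PIK3R1 at -0.74 lie left of the lower line before adjustment and at -0.30 and -0.35 after it, while AKT1 stays right of 0 at 0.49 and 0.42.

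The catalytic subunit genes were both below their control level. PIK3CA (ENSG00000121879, GRCh38 chromosome 3, 179148114 to 179240093, plus strand) encodes p110 alpha. It had 972 counts in the knockdown and 1235 in the control library, 44.4 and 78.3 CPM, or 2.62 and 4.50 FPKM, the authors' values scaled by exonic length and library total. The log2 ratio was -0.82 [-0.94 to -0.70], 1.76-fold lower in the knockdown library, and 6.14% of tested genes had a lower ratio. PIK3CB (ENSG00000051382, chromosome 3, 138652698 to 138834928, minus strand) encodes p110 beta, which also takes input from G protein-coupled receptors. Its counts were nearly the same, 1759 in the knockdown and 1770 in the control library, but the knockdown library was deeper, so that it stood at 80.3 and 112 CPM. The log2 ratio of PIK3CB was -0.48 [-0.58 to -0.39], short of 1.5-fold. PIK3CA shares 3403 exon bases with KCNMB3 on the opposite strand, which had 15 counts in the knockdown and 10 in the control library.

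The word TGTTTAC, the FOXO core motif read on the other strand as GTAAACA, stands in the annotated promoter window of PIK3CA. FOXO factors are held out of the nucleus by AKT, and the word is shown because AKT acts on them. RefSeq windows of 250 bases before to 50 after each start (GRCh38.p14) were searched on both strands for this word alone. It was in 3.42% of 35116 windows of all genes and in 1 of 15 windows of the 9 core genes, in the window around the RefSeq start of PIK3CA at 179148357. The word begins 149 bases before that start, within the gene bounds given above, whose start lies further upstream. The site is chr3:179148197-179148225, plus strand, with the word in capitals.
PIK3CA promoter: agttcgttgttTGTTTACacgatgtgagc
A match of letters is not evidence of binding.

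The regulatory subunit genes went opposite ways at low levels. PIK3R1 (ENSG00000145675, chromosome 5, 68215740 to 68301821, plus strand), the gene of p85 alpha, had 186 counts in the knockdown and 224 in the control library, 8.50 and 14.2 CPM, a log2 ratio of -0.74 [-1.03 to -0.45]. PIK3R2 (ENSG00000105647, chromosome 19, 18153163 to 18170532, plus strand), the gene of p85 beta, had 52 counts in the knockdown and 22 in the control library, 2.38 and 1.40 CPM, a log2 ratio of 0.75 with the wide interval of 0.02 to 1.56. The lower bound of PIK3R2 lies close to no difference, and the gene shares 3947 exon bases with the read-through locus AC007192.1 on its own strand, which had 17 counts in the knockdown and 3 in the control library, so its value is uncertain. Against PIK3R2, PIK3R1 was 2.84-fold lower in the knockdown library, a log2 difference of -1.51 [-2.35 to -0.70]. After adjustment for exonic length, GC and abundance this difference was -0.80. Per exonic length PIK3R1 made up 53.1% of the sum of both genes in the knockdown library and 76.3% in the control library.

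The AKT genes were not lower in the knockdown library. AKT1 (ENSG00000142208, chromosome 14, 104769349 to 104795751, minus strand), the widely expressed kinase that drives survival and growth, had 4234 counts in the knockdown and 2166 in the control library, 193 and 137 CPM. Its log2 ratio of 0.49 [0.42 to 0.57], 1.41-fold, was short of the 1.5-fold rule, and 82.2% of tested genes had a lower ratio. AKT2 (ENSG00000105221, chromosome 19, 40230317 to 40285536, minus strand), best known for insulin-stimulated glucose uptake, had 1396 counts in the knockdown and 962 in the control library, 63.8 and 61.0 CPM. The log2 ratio of AKT2 was 0.06 [-0.06 to 0.18], a difference not detectable at this depth. AKT1 relative to AKT2 was 1.35-fold higher in the knockdown library, a log2 difference of 0.43 [0.29 to 0.57].

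MTOR and the scaffolds of both its complexes stood below their control level, none by 1.5-fold; after the adjustment described below RICTOR was at 0.00, MTOR at -0.29 and RPTOR at -0.39. MTOR (ENSG00000198793, chromosome 1, 11106535 to 11262556, minus strand), the shared kinase, had 1667 counts in the knockdown and 1628 in the control library, 76.1 and 103 CPM, a log2 ratio of -0.44 [-0.54 to -0.34]. RICTOR (ENSG00000164327, chromosome 5, 38937920 to 39074399, minus strand), the scaffold of mTORC2, had 1992 counts in the knockdown and 1956 in the control library, 91.0 and 124 CPM, a log2 ratio of -0.45 [-0.54 to -0.36]. RPTOR (ENSG00000141564, chromosome 17, 80544819 to 80966371, plus strand), which presents substrates to mTORC1, had 508 counts in the knockdown and 460 in the control library, 23.2 and 29.2 CPM, a log2 ratio of -0.33 [-0.52 to -0.15]. RICTOR shares 229 exon bases with OSMR, a cytokine receptor gene on the opposite strand with 6499 counts in the knockdown and 6562 in the control library and a log2 ratio of -0.49; the labels name a stranded kit or an equivalent, and whether the counting used strand is not given in the sources used here.

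**Figure D2:**
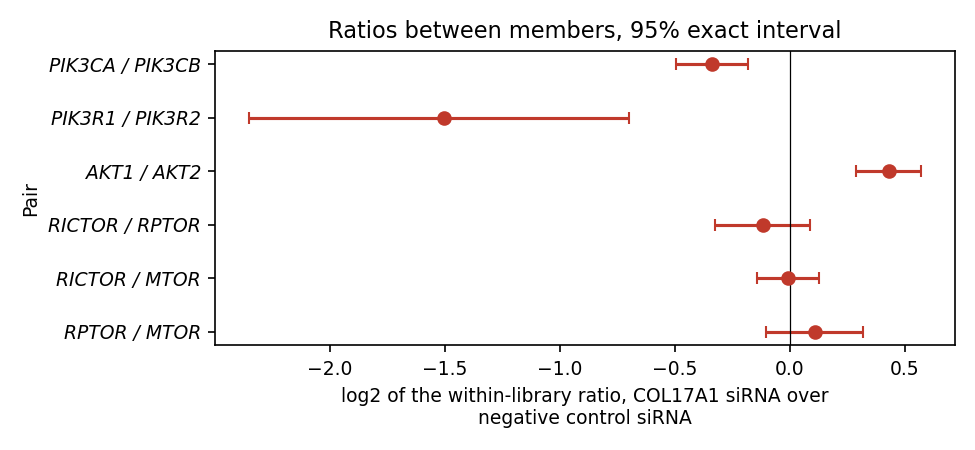
Within-library ratio of 6 pairs of core genes, COL17A1 siRNA over negative control siRNA, on a log2 axis with exact 95% intervals. The ratios of PIK3CA to PIK3CB, PIK3R1 to PIK3R2 and AKT1 to AKT2 differed between the libraries, while the 3 intervals among RICTOR, RPTOR and MTOR hold 0.

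Ratios between members compare genes inside a library and so do not depend on its depth. PIK3CA relative to PIK3CB was 1.26-fold lower in the knockdown library, a log2 difference of -0.34 [-0.49 to -0.18]. After adjustment this difference was -0.10, outside the unadjusted interval. Per exonic length PIK3CA made up 20.1% of the sum of both catalytic genes in the knockdown library and 24.1% in the control library. For RICTOR relative to RPTOR the log2 difference was -0.12 [-0.32 to 0.09], for RICTOR relative to MTOR -0.01 [-0.14 to 0.13] and for RPTOR relative to MTOR 0.11 [-0.10 to 0.32]. After adjustment these differences were 0.38, 0.29 and -0.09, so that each changed sign and those of RICTOR lay outside the unadjusted intervals. The interval of RICTOR against RPTOR, the scaffolds of mTORC2 and mTORC1, reaches as far as -0.32 on the log2 scale, so counting error leaves room for a modest difference.

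The order of the 9 levels per exonic length differed at the top. In the knockdown library AKT1 led at 17.9 FPKM, followed by PIK3CB at 10.4, RICTOR at 6.81, MTOR at 5.77, AKT2 at 4.06, PIK3CA at 2.62, RPTOR at 2.28, PIK3R1 at 0.53 and PIK3R2 at 0.47 FPKM. The intervals of PIK3CA and RPTOR overlapped there, as did those of PIK3R1 and PIK3R2. In the control library PIK3CB led at 14.1 FPKM before AKT1 at 12.4, PIK3CA at 4.50 stood before AKT2 at 3.79, and no neighbouring intervals overlapped. The catalytic genes PIK3CA and PIK3CB summed to 13.01 FPKM in the knockdown and 18.6 in the control library, and AKT1 and AKT2 to 21.9 and 16.2. PIK3R1 and PIK3R2 summed to 1.00 FPKM in the knockdown and 1.13 in the control library. With PIK3R3, a further regulatory subunit gene, at 1.24 FPKM in the knockdown and 0.91 in the control library, the sums were 2.24 and 2.04. The deposited exonic size joins all exons of a gene, 17189 bases for PIK3CA, and can exceed the transcript present, which lowers the FPKM of genes with many alternative exons.

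**Figure D3:**
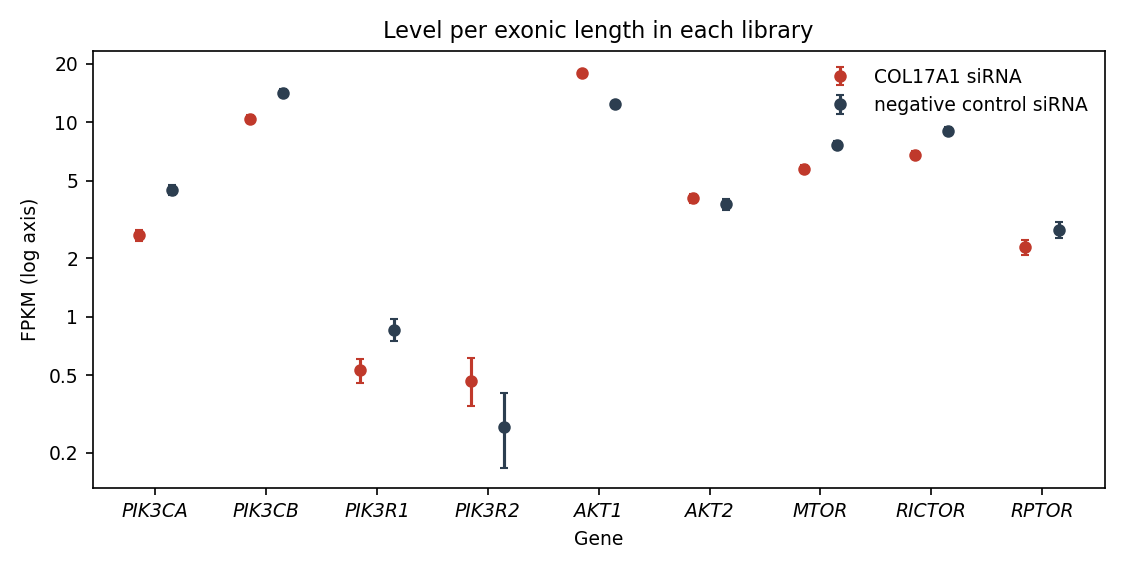
FPKM of each core gene on a log axis in the COL17A1 siRNA library and the negative control siRNA library, with exact 95% Poisson intervals of the count; 1 library per group. AKT1 is at 17.9 in the COL17A1 siRNA library and 12.4 in the control library, PIK3CA at 2.62 and 4.50, and the regulatory genes PIK3R1 and PIK3R2 lie under 1 FPKM in both.

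The 9 log2 ratios followed the GC content of the transcripts, a property the choice of genes did not use. PIK3CA, RICTOR, PIK3CB and PIK3R1, whose longest transcripts hold 34.8%, 36.5%, 39.4% and 40.3% GC, had ratios from -0.82 to -0.45. PIK3R2 and AKT1, at 64.2% and 62.1% GC, had ratios of 0.75 and 0.49. Spearman's rho was 0.92 over the 9 genes, which share both libraries, and 0.37 over 13258 tested genes with a known GC content. Over those 13258 genes rho with exonic length was -0.38, so length went with the ratio too. The core genes span 5163 bases in PIK3R2 to 17189 in PIK3CA, against a median of 5182 bases for all tested genes. Among all tested genes under 40% GC the median ratio was -0.22 with 4.19% higher and 20.7% lower, and among those of at least 60% GC it was 0.37 with 28.5% higher and 2.94% lower. RPTOR and MTOR lay below genes of like composition, RPTOR at -0.33 in a class, 55% to 60% GC, with a median of 0.23, and MTOR at -0.44 in the class of 50% to 55% GC with a median of 0.11.

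**Figure D4:**
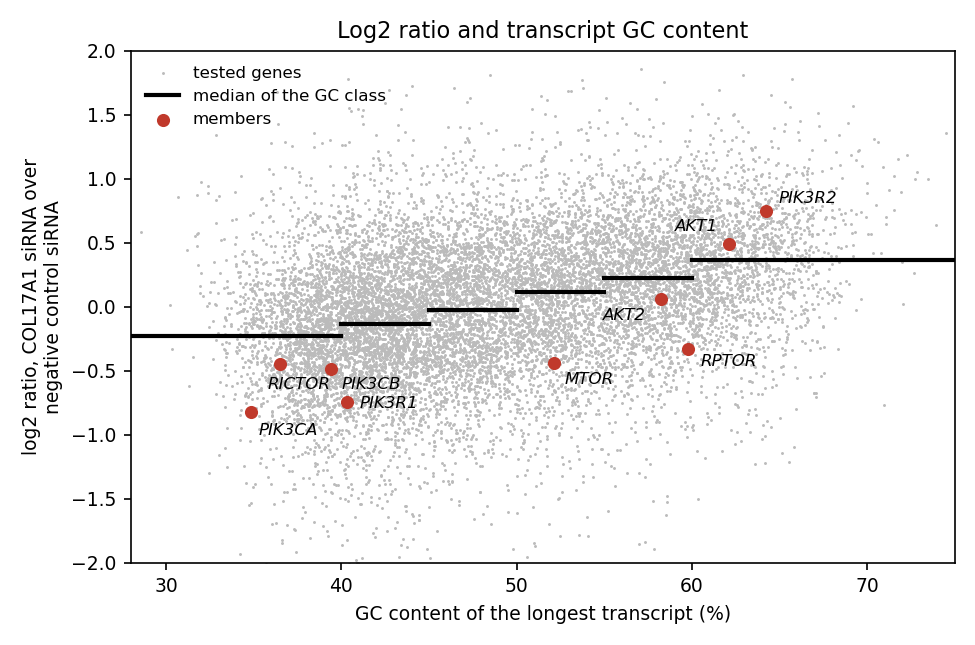
Log2 ratio, COL17A1 siRNA over negative control siRNA, against GC content of the longest transcript, for tested genes in grey, class medians as black bars and core genes in red; 47 genes lie outside the axes. Class medians run from -0.22 under 40% GC to 0.37 at 60% GC or more, with PIK3CA at the low left and PIK3R2 at the high right.

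After a linear fit over the tested genes on exonic length, transcript GC content and abundance was taken out, 0 of the 9 core genes were called, where 8.34% of tested genes were higher and 8.83% lower. The adjusted ratios of PIK3CA and PIK3R1 were -0.30 [-0.42 to -0.18] and -0.35 [-0.64 to -0.06]. RICTOR came to 0.00 [-0.09 to 0.09], PIK3CB to -0.20 and MTOR to -0.29. AKT1 at 0.42 and RPTOR at -0.39 hardly moved, and PIK3R2 at 0.46 [-0.27 to 1.26] had an interval that held 0. The adjusted member median was -0.20, against 0.03 for all tested genes. Whether the trend with GC content and length arose in the cells or in the libraries was not tested.

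None of the 9 core genes held either of the 7-base words GCTAATG and TCGGAGA, which earlier results of these data had singled out, in any annotated 3' UTR of at least 50 bases. In the longest 3' UTR, GCTAATG stood in 8.50% of 11673 searched genes, with a median log2 ratio of -0.41 against 0.05 for genes without it, and TCGGAGA in 2.19%. Of 130 tested genes in the pathway lists described below, 13 held GCTAATG, of which 7 were lower and 1 was higher, where 37.7% of all 992 tested genes with the word were lower and 4.54% higher. After adjustment 2 of the 13 were lower and 2 higher, where 24.5% of the 992 were lower and 6.75% higher. Sites are shown for the 6 of these 8 that the naming rule picks among the called genes, with the word in capitals, on GRCh38 from GENCODE transcripts, to set them beside the core genes that lack it.
LAMTOR3, chr4:99881371-99881399, minus strand: tgaaaattataGCTAATGttttttcctca
INPP4B, chr4:142027315-142027343, minus strand: tgcttcccataGCTAATGtgatagctcct
EEF2K, chr16:22288141-22288169, plus strand: caccacgcgcaGCTAATGtttgtattttt
KLF6, chr10:3779243-3779271, minus strand: acactgagaatGCTAATGgttgggttgat
SMG1, chr16:18805379-18805407, minus strand: ctgtttgttgtGCTAATGtaaaagtgtca
PPP2R1A, chr19:52228876-52228904, plus strand: tgttgcctttgGCTAATGcataggggcac
The first 5 genes were lower in the knockdown library and PPP2R1A was higher; after adjustment LAMTOR3, EEF2K and PPP2R1A were called, and INPP4B, KLF6 and SMG1 were not.

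The genes around the core went both ways; below, a gene said to be at a value has that log2 ratio, knockdown over control. Over 13 lists of pathway genes, 130 of 141 genes were tested, of which 13 were higher and 17 lower, with a median log2 ratio of 0.02. Each list count below is to be read beside the shares of all tested genes, 12.2% higher and 11.7% lower. After adjustment these shares were 8.34% and 8.83%. Of 12 receptors and adaptors 1 was higher and 2 lower. IRS1, the adaptor that carries insulin and IGF signals to PI3K, had 497 counts in the knockdown and 713 in the control library, a log2 ratio of -0.99 [-1.16 to -0.83], and -0.88 after adjustment. MET, the receptor of hepatocyte growth factor, was at -0.66 on 7339 counts in the knockdown and 8349 in the control library, under 1.5-fold after adjustment at -0.44. GAB2, a docking adaptor that holds TCGGAGA, was at 0.84 [0.17 to 1.59] on 63 counts in the knockdown and 25 in the control library. EGFR, IGF1R and INSR, not called, were at -0.42, 0.02 and 0.17; they and other uncalled genes given below for their role in the pathway were chosen after their values were seen.

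Among other PI3K subunits none passed the rule. PIK3CD, the p110 delta of leukocytes, was at -0.18 on 292 counts in the knockdown and 238 in the control library, PIK3C2A of class II at -0.42, and PIK3R3 and PIK3R4, the regulatory subunits of class I and class III, at 0.41 and -0.26. PIK3CG had 0 counts in both libraries, which allows up to 0.139 CPM in the knockdown and 0.188 CPM in the control library. PIK3C2A shares 58 exon bases on its strand with the abundant RPS13. PIK3CD shares 89 exon bases with CLSTN1 on the opposite strand, which had 6669 counts in the knockdown and 4753 in the control library.

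Of 12 phosphatases that oppose the pathway 3 were lower and 1 higher, where 11.7% of all tested genes were lower and 12.2% higher. PHLPP2 and PHLPP1, which dephosphorylate AKT, were at -0.93 [-1.10 to -0.77] and -0.61 [-0.92 to -0.29], and past 1.5-fold after adjustment at -0.67 and -0.64; PHLPP1 was short of it, at -0.57, with scaling by total counts. PHLPP2 shares 1068 exon bases with MARVELD3 on the opposite strand, which had 1241 counts in the knockdown and 716 in the control library. INPP4B, a lipid phosphatase, was at -0.72, and -0.28 after adjustment. PPP2R1A, a scaffold of protein phosphatase 2A, was at 0.59, just past the rule, and short of it at 0.57 with the size factors of DESeq2.

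Kinases next to AKT were mostly below their control level, with 1 of 7 called. SGK1, a kinase activated by mTORC2, was at -0.73 [-0.79 to -0.68] on 4711 counts in the knockdown and 5631 in the control library, and at -0.43 after adjustment. PDPK1, which phosphorylates AKT, was at -0.57 [-0.69 to -0.44], short of the rule, and the kinase PKN2 at -0.50.

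Of the 9 other subunits and assembly factors of the mTOR complexes 1 was higher and 1 lower, around a median of 0.38. PRR5, a subunit of mTORC2, was at 0.95 [0.56 to 1.37] with 197 counts in the knockdown and 73 in the control library, and 0.71 after adjustment; the read-through locus PRR5-ARHGAP8 on its strand had 4 counts in the knockdown and 2 in the control library. TTI1, which helps fold MTOR and related kinases, was at -0.60 [-0.72 to -0.49], and short of 1.5-fold at -0.56 with scaling by total counts. MLST8, present in both complexes, was at 0.49, MAPKAP1 of mTORC2 at 0.01, and AKT1S1, an inhibitor of mTORC1, at 0.58. RHEB, the GTPase that activates mTORC1, was at 0.27 on 4952 counts in the knockdown and 2960 in the control library, uncertain because its copies RHEBP1 and RHEBP2 had 82 and 611 counts in the knockdown library and 35 and 415 in the control library. Its relative RHEBL1 was at 0.59, just past the rule, short of it at 0.57 with the size factors of DESeq2 or with 2 counts added, and at 0.21 after adjustment. TSC2 and TSC1, of the complex that switches RHEB off, were at -0.02 and -0.33.

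The genes that bring mTORC1 to the lysosome and sense amino acids had 6 of 28 higher and 3 lower, and 6 higher and 1 lower after adjustment. Of all tested genes 12.2% were higher and 11.7% lower, and 8.34% and 8.83% after adjustment. In the Ragulator complex, the lysosomal anchor of the Rag GTPases, LAMTOR4 was at 1.04 [0.88 to 1.21] with 1144 counts in the knockdown and 400 in the control library, and LAMTOR1 at 0.88 [0.80 to 0.96] with 4908 in the knockdown and 1920 in the control library. LAMTOR3 of the same complex was at -1.15 [-1.29 to -1.02] with 717 counts in the knockdown and 1147 in the control library. All 3 were also past 1.5-fold after adjustment, at 0.66, 0.65 and -0.97. CASTOR2, a relative of the arginine sensor CASTOR1, was at 1.09 [0.78 to 1.41] on 337 counts in the knockdown and 114 in the control library. LAMTOR4 shares 356 exon bases with C7orf43 on the opposite strand, which had 370 counts in the knockdown and 172 in the control library.

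**Figure D5:**
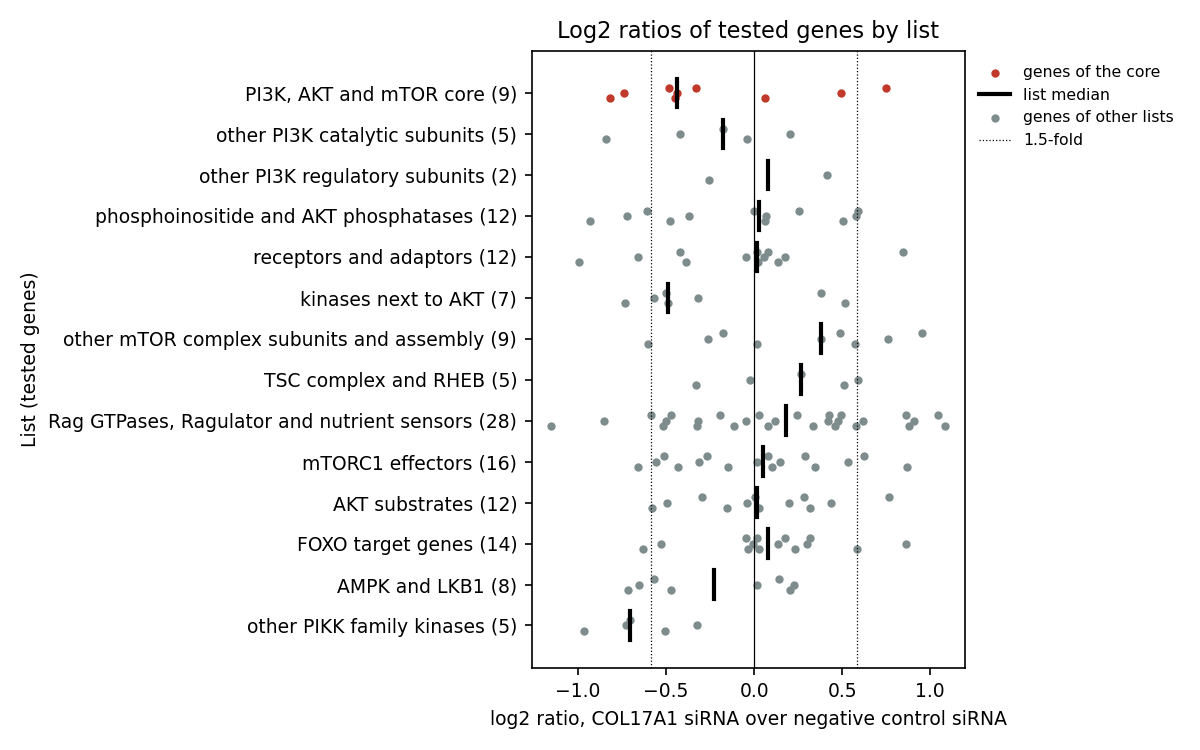
Log2 ratios, COL17A1 siRNA over negative control siRNA, of the tested genes of the core and of 13 pathway lists, with list medians as black bars and dotted lines at 1.5-fold. The core median of -0.44 and the median of -0.71 of other PIKK family kinases lie left of 0, and that of other mTOR complex subunits lies at 0.38.

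Of 16 mTORC1 effectors 2 were higher and 1 lower, a share near that of all tested genes, and after adjustment 0 were higher and 1 lower. EIF4EBP1, the translation repressor that mTORC1 inactivates, was at 0.87 [0.75 to 0.98] with 2285 counts in the knockdown and 903 in the control library, and at 0.23 after adjustment. ULK1, which starts autophagy, was at 0.62 and at 0.43 after adjustment, and EEF2K, which slows elongation, at -0.66 and -0.59. Of 12 AKT substrates 1 was higher, the death promoter BAD at 0.77 [0.59 to 0.95], with 0.24 after adjustment; BAD shares 404 exon bases with GPR137 on the opposite strand, which had 624 counts in the knockdown and 244 in the control library. CDKN1A and MDM2, a cell cycle inhibitor and the ligase of p53, were at 0.20 and -0.30.

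FOXO targets, known to be induced when AKT is inactive, had a median of 0.08 with 1 of 14 higher and 1 lower. After adjustment the median was 0.23, against 0.03 for all tested genes, with 2 higher and 1 lower. Then 10 of 14 lay above 0, where 53.15% of all tested genes did. SESN3 was at 0.86 [0.31 to 1.46] on 94 counts in the knockdown and 37 in the control library, and at 1.22 after adjustment, and KLF6 was at -0.63 and -0.52. CAT, a catalase, at 0.58, and GADD45A, a stress-response gene, at -0.53, were not called before adjustment and were after it, at 0.59 and -0.74. IRS2, INSR, ERBB3, CDKN1B and SESN3 stand in this list and in another. SESN3 is thus also counted among the higher genes of the amino acid sensing list. Of 8 genes of AMPK, the energy sensor that restrains mTORC1, and its activator LKB1 2 were lower. PRKAA1, a catalytic subunit, was at -0.65 [-0.72 to -0.59], and at -0.32 after adjustment. PRKAG1, a regulatory subunit, was at -0.72 with an interval of -1.45 to -0.0046 on 32 counts in the knockdown and 38 in the control library, and at -0.68, not called, with scaling by total counts.

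The other genes of the MTOR kinase family, PRKDC, ATM, ATR, SMG1 and TRRAP, were all below their control level. Of these 5, 3 were lower by the rule, where 11.7% of all tested genes were. ATR was at -0.96 [-1.10 to -0.83], PRKDC at -0.73 and SMG1, uncertain because of its pseudogene copies, at -0.71. After adjustment 0 of 5 were called, with these 3 at -0.46, -0.29 and -0.27. Their median exonic length of 27230 bases exceeds that of all tested genes, 5182 bases, and 13373 bases in MTOR.

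The deposited table assigns 116 tested genes to the mTOR signalling pathway, of which 15 were higher and 16 lower, with a median log2 ratio of 0.10. Among all tested genes 12.2% were higher and 11.7% lower, and after adjustment 8.34% were higher and 8.83% lower. For the PI3K-Akt pathway 27 of 266 were higher and 46 lower, around -0.04. For the FoxO pathway 4 of 94 were higher and 21 lower around a median of 0.00. The insulin and AMPK pathways had 12 higher and 17 lower of 120, and 11 higher and 13 lower of 130. Membership is partial, as the entries of 6 core genes were not used here, and the entry for autophagy, 946 tested genes with 95 higher and 103 lower, includes many genes with no known part in it. After adjustment the counts higher and lower were 11 and 11 for mTOR, 17 and 30 for PI3K-Akt, 6 and 13 for FoxO, 5 and 8 for insulin, 8 and 9 for AMPK, and 85 and 58 for autophagy, where the balance turned.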

How the data were processed

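The authors deposited 1 table with a raw count and an FPKM value per gene and library. HISAT2, STAR and edgeR, on hg38 or GRCh38, are listed per the submitters' processing notes, without roles or versions. How reads were counted, with or without strand, is not stated in those sources. The deposited FPKM equalled the count over exonic size and column total within 0.005. Other gene annotation came from GENCODE release 29 and promoter windows from RefSeq.

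Library sizes were multiplied by edgeR's trimmed mean of M-values factors, 1.01 for the knockdown and 0.987 for the control library (edgeR 4.0.16, R 4.3.3). Log2 ratios had 0.5 added to each count; the 95% intervals are exact Clopper-Pearson ones, and pair ratios conditional exact odds ratios. Of 24705 genes with a count, 13375 averaging 1 CPM or more are the tested genes. A gene was called at 1.5-fold with an interval excluding 1. The adjustment was a linear fit on log2 exonic length, GC content and log2 CPM, with log2 ratios capped at 3 in size, for 99.1% of tested genes. Reads carry no molecular identifiers and are not independent molecules, so intervals and the limit of 3 counts at 0 cover counting error only.

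The members and lists were chosen with earlier results of these data known. Named are all members, COL17A1 and, of each list, up to 4 called genes ranked by how far the whole interval lay from 1, with the 2 most abundant where fewer than 2 were called. SAMTOR was not matched by symbol. Some genes of the lists are not reported here. No paired test and no p-value was computed. The steps were tested on simulated data. Software was scipy 1.17.1, numpy 2.4.6 and pandas 2.3.3 under Python 3.11.15, with figures by matplotlib 3.10.9.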

Additional observations from a re-analysis of the deposited data

How the results depend on the processing

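No paired analysis was possible because each group has 1 library. Alternatives were the size factors of DESeq2 1.42.0, total counts, the deposited FPKM with 0.1 added, 2 added to each count, no filter, a mean of at least 5 CPM, the adjustment for exonic length, GC and abundance, protein-coding genes alone and, for member calls, leaving out genes holding either 3' UTR word. The adjustment moved most: 0 members higher and 0 lower, a member median of -0.20, and log2 differences of -0.10 for PIK3CA against PIK3CB, 0.38 for RICTOR against RPTOR and 0.29 for RICTOR against MTOR. At 2-fold 407 tested genes were higher and 480 lower, and 0 members in each direction. With a mean of at least 5 CPM PIK3R2 was not tested, which left 0 members higher. Under the other alternatives 1 member was higher and 2 were lower, and the member median stayed between -0.46 and -0.40. Depth limits PIK3R2 most, at 52 counts in the knockdown and 22 in the control library.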
